A study of Mus musculus with 7 samples.

Results

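Distal H3K27ac peaks with a transient gain were the regions that carried more of this mark 12 h after NeuroD1 induction than both before it and at 48 h. They were selected on the read counts themselves. Counts of each library were scaled to a common total, and a peak was kept when it did not overlap the 2 kb on either side of a protein-coding transcription start site (TSS), held at least 20 raw reads on average over the 6 libraries, and had a lower 12 h value of at least 1.3 times the highest of the 4 values at 0 h and 48 h. This ratio is called the transient ratio here. The rule found 2597 peaks among 66841 merged peaks, or 9.16% of the 28356 distal peaks with enough reads. The other 25759 of these distal peaks served for comparison.

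The cells were A2Lox mouse embryonic stem (ES) cells, in which doxycycline (Dox) switches on a NeuroD1 transgene. The cells had been kept with serum and LIF, and feeders had been removed before feeder-free passage. H3K27ac ChIP-seq was done without Dox (0 h) and 12 h and 48 h after adding Dox at 500 ng/ml, with replicates R1 and R2 at each time. All 6 libraries came from cells that carry the transgene, and no library without it at 12 h or 48 h was analysed here. Because whole cultures were measured, fewer cells with the mark and less mark per cell cannot be told apart, and time in culture with Dox cannot be told apart from NeuroD1 itself. Nothing in the labels shows whether R1 and R2 were separate cultures, so the p-values measure the spread between these libraries only.

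H3K27ac, acetylation of lysine 27 on histone H3, marks active enhancers and promoters. It is placed by the acetyltransferases p300 and CBP, and it can be removed within hours when a region loses its activators. NeuroD1 is a proneural basic helix-loop-helix factor that binds E-boxes (CANNTG), with a known preference for CAGATG and CAGCTG. ES cells rely on enhancers bound by Pou5f1, Sox2, Nanog, Esrrb and Klf4, which are decommissioned as cells differentiate.

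The sequences below are the central 300 bases of the 5 peaks with the highest transient ratio, together with the peaks near St18 and Fgfr2, which had the highest ratios among the listed regulators of neurons and of signalling. They are shown because the E-box is the site that NeuroD1 binds, and capitals mark every CANNTG. They were read from the plus strand of GRCm38 (mm10) and named by the gene with the nearest TSS. The nearer Atp10a peak is chr7:58226369-58226668, 431727 bp from that TSS in intergenic DNA, and the farther one is chr7:58224613-58224912. The Satb1 peak is chr17:51840237-51840536 in intergenic DNA, the Adam12 peak is chr7:134023131-134023430 in an Adam12 intron, and the Gm17555 peak is chr2:126303160-126303459 in intergenic DNA. The St18 peak is chr1:6458831-6459130, 28250 bp from the TSS in intergenic DNA, and the Fgfr2 peak is chr7:130253422-130253721 in an Fgfr2 intron.
Atp10a, nearer peak: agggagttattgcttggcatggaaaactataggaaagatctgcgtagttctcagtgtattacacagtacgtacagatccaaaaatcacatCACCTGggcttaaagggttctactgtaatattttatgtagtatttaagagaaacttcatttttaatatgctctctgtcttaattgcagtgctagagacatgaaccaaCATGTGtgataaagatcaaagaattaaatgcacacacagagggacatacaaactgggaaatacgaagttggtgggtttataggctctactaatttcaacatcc
Satb1: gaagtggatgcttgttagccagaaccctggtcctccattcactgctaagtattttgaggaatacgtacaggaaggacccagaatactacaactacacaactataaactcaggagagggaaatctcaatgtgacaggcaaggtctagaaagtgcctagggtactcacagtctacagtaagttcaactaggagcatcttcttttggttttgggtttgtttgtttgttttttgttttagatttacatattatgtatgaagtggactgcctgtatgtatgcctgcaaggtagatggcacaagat
Adam12: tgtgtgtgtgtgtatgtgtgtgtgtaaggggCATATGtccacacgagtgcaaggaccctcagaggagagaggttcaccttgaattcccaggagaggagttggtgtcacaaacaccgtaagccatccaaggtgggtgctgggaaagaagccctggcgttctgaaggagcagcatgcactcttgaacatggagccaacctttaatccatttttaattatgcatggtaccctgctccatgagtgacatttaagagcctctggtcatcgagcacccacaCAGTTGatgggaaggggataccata
Gm17555: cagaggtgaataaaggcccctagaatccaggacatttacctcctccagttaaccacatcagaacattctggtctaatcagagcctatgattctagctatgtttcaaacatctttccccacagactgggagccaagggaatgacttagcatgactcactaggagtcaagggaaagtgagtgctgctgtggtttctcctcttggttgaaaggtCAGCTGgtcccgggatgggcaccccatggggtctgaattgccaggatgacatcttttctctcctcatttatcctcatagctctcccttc
Atp10a, farther peak: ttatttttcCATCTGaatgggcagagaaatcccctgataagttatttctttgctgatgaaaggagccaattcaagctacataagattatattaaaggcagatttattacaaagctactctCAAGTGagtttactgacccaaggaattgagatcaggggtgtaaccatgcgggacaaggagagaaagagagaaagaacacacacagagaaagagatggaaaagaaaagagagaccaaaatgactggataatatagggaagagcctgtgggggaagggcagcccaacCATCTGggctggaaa
St18: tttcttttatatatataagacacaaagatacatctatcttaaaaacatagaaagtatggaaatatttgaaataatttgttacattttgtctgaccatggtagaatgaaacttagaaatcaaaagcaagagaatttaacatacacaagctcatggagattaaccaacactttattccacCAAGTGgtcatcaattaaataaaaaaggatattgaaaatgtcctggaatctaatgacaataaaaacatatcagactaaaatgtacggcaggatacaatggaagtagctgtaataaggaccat
Fgfr2: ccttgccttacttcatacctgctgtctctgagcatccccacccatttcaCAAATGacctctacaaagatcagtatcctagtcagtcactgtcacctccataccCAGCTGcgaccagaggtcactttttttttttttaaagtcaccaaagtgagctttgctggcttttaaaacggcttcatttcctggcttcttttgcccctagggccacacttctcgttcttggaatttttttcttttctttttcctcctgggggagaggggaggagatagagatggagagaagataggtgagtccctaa

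The 7 windows held between 0 and 3 E-boxes each. CAGCTG occurred in the Gm17555 and Fgfr2 windows, and CAGATG occurred as its reverse complement CATCTG only in the farther Atp10a window. The Satb1 window had none. These letters describe the windows and are not evidence of binding.

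Values of replicates are given as R1 and then R2 throughout. Within the selected peaks, the median scaled count was 42.1 and 38.2 without Dox, 90.1 and 92.9 after 12 h, and 34.4 and 50.7 after 48 h. In the other distal peaks it stayed between 44.4 and 51.5 in all 6 libraries. The selected peaks took 4.57% and 4.34% of all reads in merged peaks without Dox, 8.45% and 8.75% after 12 h, and 3.39% and 5.06% after 48 h. The order over time follows from the selection and was not tested. The median rise of the mean from 0 h to 12 h was 2.07-fold, with a middle range of 1.73-fold to 2.74-fold. The median excess of 12 h over 48 h was 2.11-fold. A ratio of at least 2 was reached by 262 peaks and of at least 3 by 27.

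**Figure D1:**
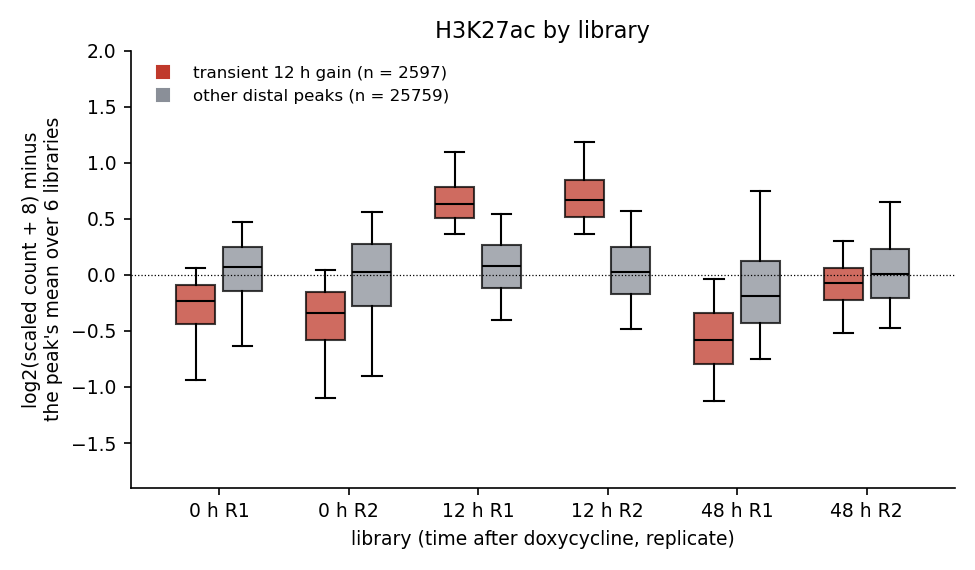
H3K27ac in each library for the 2597 peaks with transient gain and the other 25759 distal peaks, as log2 (scaled count + 8) minus the peak's own mean over the 6 libraries. Boxes show quartiles and medians and whiskers the 5th and 95th percentiles of peaks. Medians of the selected peaks were 0.63 and 0.66 at 12 h, whereas the 0 h medians were -0.23 and -0.34 and the 48 h medians -0.58 and -0.07.

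The 48 h replicates were apart. R1 was below R2 in 90.8% of the selected peaks and in 64.9% of the other distal peaks. The library 48 h R2 was the highest of the 4 limiting libraries in 57.2% of the selected peaks and 48 h R1 in 4.85%. Without 48 h R2 the rule would have taken 4534 peaks, of which 2576 were among those described here.

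The boundary of the set was narrow. The peaks just inside it were near Mtdh, Cd55b and Nmbr, the first with a ratio of 1.3000005. Those just outside were near Frk, Slc22a30 and Cul3, the first with a ratio of 1.2996609. The Mtdh peak had scaled counts of 27.7 and 25.5 without Dox, 37.5 and 39.6 after 12 h, and 28.9 and 26.7 after 48 h. The Frk peak had 42.1 and 32.9 without Dox, 54.7 and 57 after 12 h, and 27.8 and 30.1 after 48 h. No break in the values separated both sides.

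Selection in 1 replicate allowed the pattern to be read in the other. Among the distal peaks, 6741 had a ratio of at least 1.3 within R1 alone. In R2, 49.4% of these also reached 1.3 and 80.3% were highest at 12 h, against 16.4% and 36.8% of all 28356 distal peaks. Selection on R2 alone gave 4648 peaks, of which 71.7% reached 1.3 in R1, against 23.8% of all. Most peaks selected on one replicate were thus highest at 12 h in the other as well, while many fell short of the threshold there. With counts corrected for GC content, the shares that reached 1.3 were 43.9% of 4919 peaks, against 13.1% of all, and 57.9% of 3727 peaks, against 17.3%. Since R1 and R2 may not be separate cultures, these shares describe how alike the libraries were and support nothing further.

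With edgeR's quasi-likelihood test over all peaks (Benjamini-Hochberg adjusted p under 0.05), 1974 of the 2597 selected peaks were gained at 12 h vs 0 h, beside 9.93% of all merged peaks. Of the selected peaks, 2200 were lost at 48 h vs 12 h, beside 8.43% of all. Both contrasts entered the selection, so these counts describe how far single peaks stood above the replicate spread and support nothing further. Both calls held in 1755 peaks. Neither call was reached in 178 peaks, which were shallow, with a median of 29.3 reads against 82.8 for those with both. Omitting any single library of 0 h or 12 h left 530 to 1022 gained peaks, fewest without 0 h R2, and omitting 12 h R1 or R2 left 914 or 616 lost peaks. With GC content as an offset, 1600 were gained (8.71% of all merged peaks) and 2074 lost (10.6% of all).

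The rule did not order 48 h against 0 h, although it limited both. The median log2 fold change of the selected peaks at 48 h vs 0 h was -0.01, beside -0.04 for all merged peaks. Of the selected peaks 234, or 9.01%, were gained at 48 h vs 0 h, against 8.56% of all merged peaks. Another 98, or 3.77%, were lost, against 5.45% of all. The gained share was near the background and the lost share was below it. With the GC offset, 292 of the selected peaks were gained and 264 lost at 48 h vs 0 h. Shares of all merged peaks with this offset are not given for this contrast. The counts without the offset changed widely when a library was left out, which leaves a single library at that time. Without 48 h R2 there were 559 lost peaks, and without 48 h R1 there were 509 gained ones. Without 0 h R1 or R2 there were 122 or 55 gained and 29 or 14 lost, and without either 12 h library 51 were lost. Per peak, the share of the 12 h gain that remained at 48 h had a median of -1.41% and a middle range of -22.8% to 16.0%. In 511 peaks the 48 h values were both under the lower 0 h value, and in 530 they were both over the higher one. The selected peaks thus ended on either side of their starting level in similar numbers.

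The start level differed widely. In 294 peaks the mean scaled count at 0 h was under 15, and their median rise to 12 h was 4.2-fold. In 723 peaks it was from 15 to 30, with a median rise of 2.2-fold, and in 678 it was at least 100, with 1.77-fold. A peak with few reads at 0 h could pass the minimum mean count and the ratio only with a high 12 h value, so this order is largely set by the rule. Only 2 peaks had at most 3 reads in both 0 h libraries. Most of the selected peaks thus carried reads before induction.

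The highest transient ratio was 5.32, in the nearer Atp10a peak, 431727 bp from the TSS of this phospholipid flippase gene. Its scaled counts were 11.3 and 5.31 without Dox, 60.0 and 89.2 after 12 h, and 6.66 and 10.3 after 48 h. The farther peak beside it had 54.4 and 44.6, then 208 and 257, then 19.99 and 46.4. Both were high in the 12 h libraries alone.

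Next came a peak 7097 bp from the TSS of Satb1, which encodes a chromatin organiser. It had 24.6 and 21.2 without Dox, 138 and 133 after 12 h, and 27.8 and 26.7 after 48 h, so that the replicates of each time lay close together. An intron of Adam12, a metalloprotease gene, held a pair of the selected peaks. The first had 19.5 and 22.3, then 125 and 115, then 21.1 and 24.9, and the second rose to 113 and 87.4 at 12 h. The remaining peaks among the 10 highest ratios were near Gm17555, Med13l, Apol7e, St18 and Clvs1. All 10 kept a ratio of at least 2.82 after GC correction.

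The peak near Med13l, which encodes a part of the Mediator kinase module, held 46.2 and 35 without Dox, 237 and 239 after 12 h, and 44.4 and 63.6 after 48 h. The peak near Clvs1 held 23.6 and 13.8, then 142 and 177, then 36.6 and 41.3. Within 500 bp, the Med13l and Apol7e peaks had 2 CAGATG sites each and the Clvs1 peak had none.

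Of the 10 selected peaks with most reads, 9 rose from 0 h to 12 h by 1.36-fold to 1.71-fold, below the median of 2.07-fold over the set, and 7 were broad. A 24576 bp peak downstream of Sall1, a zinc-finger gene active in ES cells, had 4834 and 4604 scaled reads without Dox, 6915 and 7111 after 12 h, and 3214 and 4109 after 48 h. A 14758 bp peak 109767 bp downstream of Sox2 lay on the side of the distal enhancer cluster known to control this gene in ES cells. It had 2588 and 2735 reads without Dox, 3776 and 3644 after 12 h, and 1552 and 2372 after 48 h. In both, the 48 h libraries were lowest, whereas the place of the 12 h libraries above all others follows from the rule. Other broad peaks lay near Stoml1, Etl4, Col18a1 and Spry4, and at 48 h those near Etl4 and Spry4 had R1 below and R2 above both 0 h values. The exception was a broad peak in an Ldlrad3 intron, which rose 2.34-fold, from 1888 and 1781 reads to 4272 and 4299, and kept 2268 and 3156 at 48 h, a gain over 0 h (log2 0.57 ± 0.14, SE, edgeR adjusted p = 0.009). Of the 10 peaks with most reads, 2 met the rule after GC correction, those near Ldlrad3 (1.33) and Spry4 (1.44). The corrected ratios ran from 1.06 to 1.44, with 1.15 in the Sox2 peak. Short peaks near P4ha2, Stmn2 and E030030I06Rik completed the 10. They belonged to 11 selected peaks with more than 1000 scaled reads per kb, against a median of 50.5 over all selected peaks. These 11 had a median width of 508 bp and a median repeat content of 50.8%.

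The selected peaks were low in G and C. Over the 500 bp round the centre, the median GC content was 44.6%, against 50.2% in the other distal peaks, and the median number of CpGs was 4 against 8. The other distal peaks included 3454 that were at least 60% GC and at least 90% repeat sequence, and none of the selected peaks was of this kind. Among peaks with under 50% repeat sequence, the medians were 45.2% and 49.6% GC. With the GC offset, the median log2 fold change of the selected peaks at 12 h vs 0 h was 0.75, against 1.04 without it. The rule applied to counts corrected for GC in each library took 1699 peaks, and 1535 of them, or 59.1% of the set described here, were shared. Their median GC content was 47.0%. The part of GC content in the gain was not tested.

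**Figure D2:**
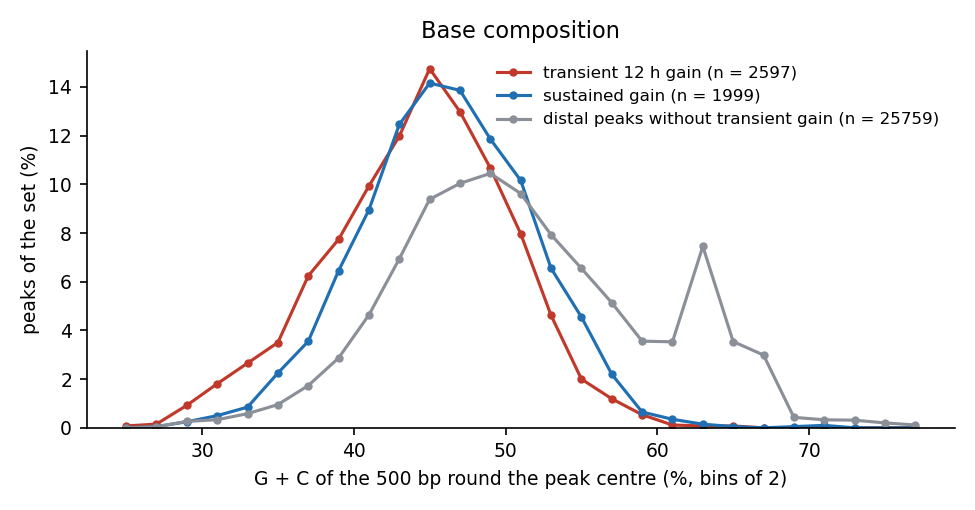
GC content of the 500 bp round the peak centre, as the percent of each set in bins of 2 percentage points. The 2597 peaks with transient gain have their median at 44.6%, the 1999 peaks with sustained gain at 46.0%, and the 25759 distal peaks without transient gain at 50.2% with a second rise above 60%.

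Position relative to genes was read next. The median distance of the selected peaks to the nearest TSS was 47620 bp, against 26600 bp in the other distal peaks, and 464 of the selected peaks were over 200 kb away. Intergenic DNA held 69.5% of them, against 51.8%, and introns held 28.8%, against 43.3%. Within the band of 45% to 50% GC, the intergenic share was 69.9% against 50.8%, and the median distance 40430 bp against 22770 bp. The difference in position was thus also there between peaks of like GC content. At promoters the pattern was rare, since 131 of 13358 promoter peaks with enough reads, or 0.981%, met the same ratio. The strongest promoter peaks of all genes had a median GC content of 62.6% and a median log2 fold change of -0.41 at 12 h vs 0 h. No GC-corrected share is given for promoters, and the part of GC content in this difference was not tested. The opposite order, with 12 h lowest by the same factor, was met by 430 of the distal peaks.

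For comparison, a sustained gain was defined as distal peaks, not in the transient set, in which all 4 libraries at 12 h and 48 h reached 1.3 times the higher 0 h value. There were 1999 such peaks. They shared the 12 h gain with the transient peaks and had a similar GC content, with a median of 46.0%. Their median distance to the nearest TSS, 41730 bp, was also near the 47620 bp of the transient peaks. Of the sustained peaks, 48.3% were intergenic, against 69.5% of the transient ones.

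The E-boxes that NeuroD1 prefers were counted in these sets. A CAGATG site lay in the 500 bp of 33.1% of the transient peaks (95% Wilson interval 31.3 to 34.9), 46.1% of the sustained peaks (43.9 to 48.3) and 30.3% of the other distal peaks as a whole. CAGCTG lay in 21.2% of the transient peaks (19.7 to 22.8), 31.0% of the sustained peaks (29.0 to 33.0) and 25.3% of the others. Both strands were searched, and the intervals cover counting error only. CAGATG occurred at least 2 times in 7.2% of the transient and 12.7% of the sustained peaks.

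The shares were also read within bands of GC content. From 40% to 45% GC, CAGATG lay in 30.3% of the transient, 45% of the sustained and 32.2% of the other distal peaks. From 45% to 50% GC, the shares were 36.3%, 46.8% and 33.6%. In both bands the CAGATG share was highest in the sustained peaks, and the transient and other peaks were near each other. From 40% to 45% GC, CAGCTG lay in 16.5% of the transient, 25.2% of the sustained and 18.5% of the other distal peaks. From 45% to 50% its shares were 25.6%, 32.7% and 25.1%. The sustained peaks were again highest, and transient and other peaks differed less than over all GC contents. The E-box CACCTG did not follow this order. It lay in 34.7% of the transient, 30.5% of the sustained and 39.5% of the other distal peaks. From 40% to 45% GC, its shares were 30.7%, 27.3% and 29.4%, and from 45% to 50% they were 42.5%, 31.9% and 34.0%. The remaining E-box forms are not described here. Of the peaks that met the rule after GC correction, 36.4% had CAGATG. Peaks of 1 domain are not independent, and no test was made of these shares.

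Of the other motifs, TCAAGGTCA, a nuclear receptor motif bound by Esrrb, lay in 3.43% of the transient peaks (95% Wilson interval 2.79 to 4.2), 1.20% of the sustained peaks (0.808 to 1.78) and 1.67% of the other distal peaks (1.52 to 1.83). By GC content, it lay in 4.22% of the transient and 1.86% of the other distal peaks from 40% to 45%, and in 4.7% and 2.46% from 45% to 50%. From 35% to 40% the shares were 2.2% and 2.12%, and from 50% to 55% they were 2.25% and 2.06%, so that they differed little in these bands. In the sustained peaks the shares of the 4 bands, from low to high GC, were 3.03%, 1.59%, 0.912% and 0.261%. The absolute numbers were small, 89 of 2597 transient and 24 of 1999 sustained peaks. The octamer of POU factors, ATGCAAAT, was in 3.43% of the transient, 4.45% of the sustained and 2.5% of the other distal peaks. The SOX motif ACAATGG was in 8.28%, 9.80% and 6.09%. From 40% to 45% GC, the transient and other peaks had 3.69% and 3.95% for POU, and 7.39% and 8.14% for SOX. From 45% to 50% these shares were 2.6% and 2.85%, and 9.78% and 7.63%. CCGGAAG, a motif of ETS factors, was in 2.23% of the transient and 11.0% of the other distal peaks, and the gap was smaller within bands of GC content. The shares were 0.244% and 0.907% from 35% to 40% GC, 1.32% and 1.79% from 40% to 45%, 3.34% and 3.66% from 45% to 50%, and 3.65% and 7.67% from 50% to 55%.

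The selected peaks were partly clustered. Joined across gaps of up to 12.5 kb, they formed 1928 domains, of which 499 had at least 2 peaks and 109 at least 3. Alone stood 1429 peaks, or 55.0%. Domains of 7 peaks lay near 2410131K14Rik on chromosome 5, over 11597 bp, and near Spin1 on chromosome 13, over 9093 bp, and in both every distal peak with enough reads was selected. The peak with most reads at 12 h in the first went from 28.7 and 32.9 (0 h) through 202 and 220 (12 h) to 48.9 and 67.1 (48 h). By chromosome, the share of the distal peaks that were selected ran from 6.95% on chromosome 8 to 15.2% on chromosome 13 among the autosomes. The genes nearest to most of these peaks were 2410141K09Rik with 14, Spin1 and Gm10139 with 11 each, and Cntnap5b and Rybp with 10 each. The first 3 of these are on chromosome 13. The Cntnap5b peaks were at least 1015650 bp from its TSS.

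The distal peaks round the selected ones, which had missed the rule themselves, were read in the same libraries. Of 1730 such peaks with the centre within 10 kb of a selected peak, 401, or 23.2%, were gained at 12 h vs 0 h, against 10.8% of all non-selected distal peaks. At 48 h vs 12 h, 323, or 18.7%, were lost, against 8.45%. The gained share fell with distance, from 28.0% within 5 kb to 14.3% from 5 to 10 kb and 9.67% beyond 100 kb. These neighbours had a lower GC content, with a median of 46.8%. From 45% to 50% GC the gained share was still 21% near and 11.8% farther away. With the GC offset, 19.5% of the neighbours were gained at 12 h vs 0 h, against 9.55% of all non-selected distal peaks. Lost at 48 h vs 12 h were 20.4%, against 13.1%, a smaller gap than without the offset. The counts without the offset changed widely when a library was left out, which leaves a single library at that time, so they are uncertain.

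**Figure D3:**
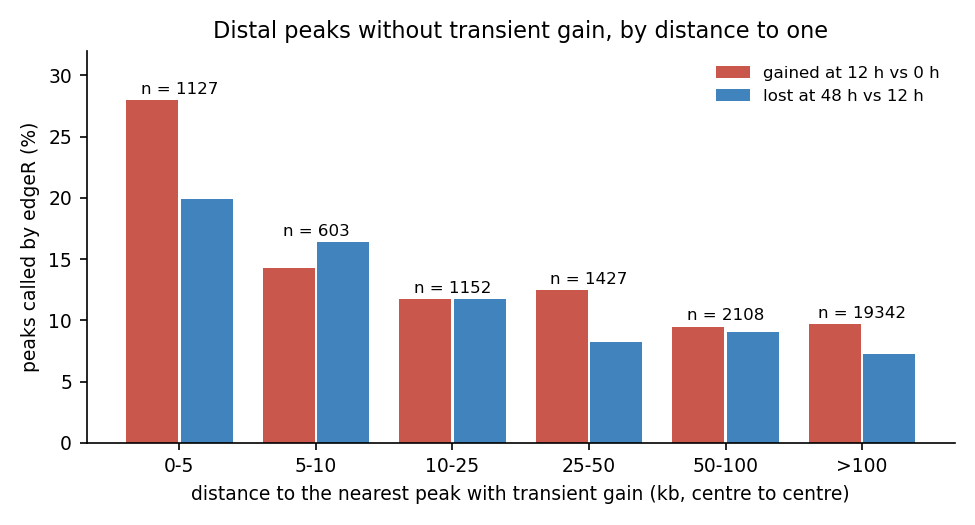
Percent of distal peaks without transient gain that edgeR called gained at 12 h vs 0 h or lost at 48 h vs 12 h, by the distance in kb between their centre and that of the nearest peak with transient gain. The number above each pair of bars is the peaks in the bin. The gained share runs from 28.0% within 5 kb to 9.67% beyond 100 kb.

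Within 100 kb of a TSS lay 1800 of the selected peaks, and they were nearest to 1243 genes, or 14.3% of the 8671 genes that were nearest to any distal peak with enough reads. Being nearest does not show that a gene is controlled by a peak. The strongest promoter peak of these genes did not enter the rule, although it was measured in the same libraries, and was found for 894. Of these promoter peaks 47, or 5.26%, were gained at 12 h vs 0 h, against 1.90% of the promoter peaks of all genes. Lost at 48 h vs 12 h were 58, or 6.49%, against 2.40%. Among promoter peaks with a call, most went the other way. At 12 h vs 0 h, 13.8% of those near the selected peaks were lost, against 21.7% of all, and at 48 h vs 12 h 23.3% were gained, against 33.7% of all. Promoter peaks of all genes had a median GC content of 62.6%. No values with the GC offset are given for this direction, and the part of GC content in it was not tested. Where a gene was nearest to at least 3 of the selected peaks, 10 of 91 promoter peaks, or 11.0%, were gained at 12 h vs 0 h. With the GC offset, 76 promoter peaks near the selected peaks, or 8.5%, were gained at 12 h vs 0 h, against 2.95% of all, and 87, or 9.73%, were lost at 48 h vs 12 h, against 4.04% of all. Without 0 h R2 only 15 were gained, without 12 h R1 only 18 were lost, and without 48 h R2 there were 88 gained and 98 lost.

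Genes of signalling and developmental pathways were then read from 13 lists. The share of a list's distal peaks that were selected is given against 8.04% of all distal peaks within 100 kb of a TSS. The Nodal, activin and BMP pathway had 19 of 114 peaks selected, or 16.7%, near 9 of its 19 genes. The formative and primed pluripotency list had 13 of 86, or 15.1%, and the FGF and ERK pathway had 14 of 107, or 13.1%. The naive pluripotency list, at 13 of 155 or 8.39%, was near the background. So were the proneural and neuronal transcription factors, with 8 of 106, or 7.55%. The genes of neuronal migration, cytoskeleton and axon guidance were lower, with 5 of 152, or 3.29%. The other lists held few peaks. There were 7 of 72 for the Notch pathway (9.72%), 4 of 35 for E proteins and Id inhibitors (11.4%), 6 of 73 for epithelial-mesenchymal transition (8.22%) and 3 of 12 for embryonic fibroblast markers (25%). The Wnt pathway and the immediate early genes had 4 of 73 each (5.48%), and regulators of mesoderm, endoderm and trophoblast had 1 of 45 (2.22%). After GC correction, when 5.44% of all such peaks were selected, the Nodal, formative, FGF, naive and neuronal lists had 16.7%, 12.8%, 12.1%, 6.45% and 6.6%, and the migration list 4.61%. The lists share genes, peaks of 1 gene are not independent, and no test was made of these shares.

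**Figure D4:**
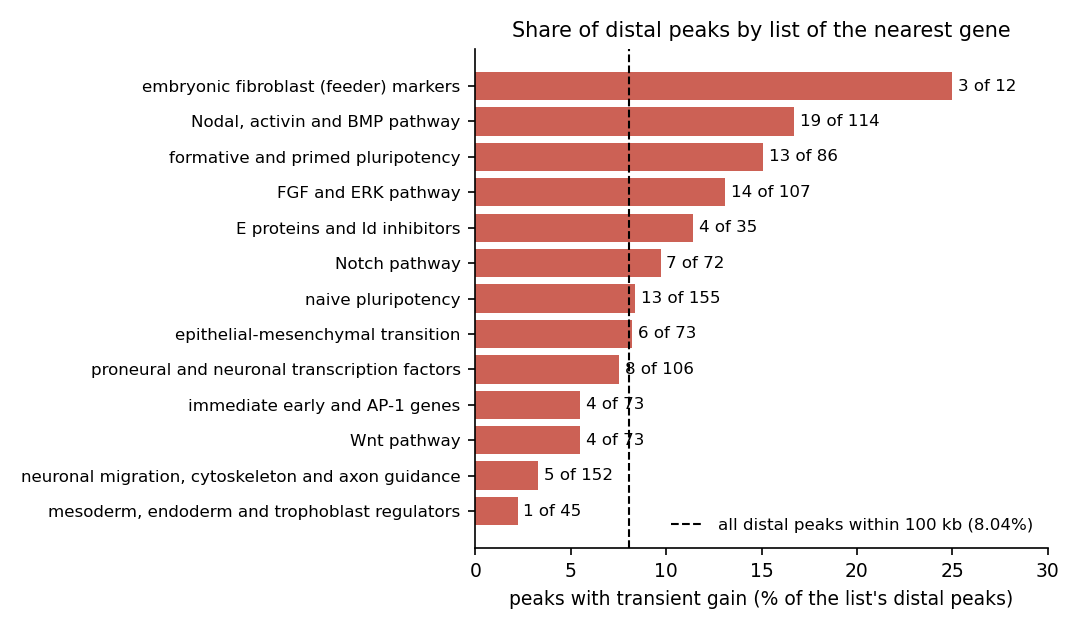
Share of the distal peaks nearest to each list's genes that had a transient 12 h gain, in percent, with the number of such peaks of all distal peaks beside each bar. The dashed line is the share over all distal peaks within 100 kb of a TSS, 8.04%. Nodal, activin and BMP genes reach 16.7% and neuronal migration genes 3.29%, and the fibroblast list rests on 12 peaks.

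In the Nodal, activin and BMP list, the selected peaks lay near a ligand subunit, near SMADs and near several inhibitors. Inhbb encodes the subunit of activin B. A 4850 bp peak 22925 bp from its TSS had 271 and 360 scaled reads without Dox, 518 and 507 after 12 h, and 58.8 and 80.8 after 48 h, so that it ended well below its start. The promoter peak of Inhbb had 92.4 and 150 without Dox, 119 and 109 after 12 h, and 44.4 and 24.1 after 48 h. It was lost at 48 h vs 12 h, with a log2 fold change of -1.76 ± 0.30 (SE, edgeR adjusted p = 0.00049).

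Ski encodes a repressor of SMAD signalling, and an intron of it held 4 selected peaks. The widest had 674 and 653 reads without Dox, 1095 and 1031 after 12 h, and 665 and 639 after 48 h, a return to the starting level in both replicates. The Ski promoter peak was gained at 48 h vs 12 h, by 0.87 ± 0.25 (log2, SE, edgeR adjusted p = 0.017), with 144 and 120 reads at 12 h and 315 and 167 at 48 h. Smad7, an inhibitory SMAD, had 3 selected peaks within 10 kb of its TSS. The middle one had 133 and 139 reads, then 233 and 223, then 56.6 and 73.1. Its promoter peak gave a log2 fold change of -0.33 ± 0.17 at 12 h vs 0 h (SE, edgeR adjusted p = 0.17). The other genes of the list were Smad4, Smad6, Skil, Smad2, Tgif1 and Lefty2. All 11 of the selected peaks near Inhbb, Ski and Smad7 also met the rule after GC correction.

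In the FGF and ERK list, an Fgfr2 intron held a pair of selected peaks. Fgfr2 encodes a receptor of fibroblast growth factors. The higher transient ratio, 2.40, was in a peak with 105 and 83.9 reads without Dox, 283 and 306 after 12 h, and 96.6 and 118 after 48 h. Its neighbour had 65.7 and 49.9, then 269 and 213, then 86.6 and 118, so that its rise at 12 h was the larger, 4.18-fold against 3.13-fold. Etv1, an ETS factor downstream of FGF signalling, had a peak 50165 bp from its TSS with 38 and 53.1, then 103 and 93.8, then 38.9 and 50.7. The Etv1 promoter peak was gained at 12 h vs 0 h by 0.59 ± 0.16 (log2, SE, edgeR adjusted p = 0.012) and did not fall back, with 787 and 789 reads at 12 h and 872 and 905 at 48 h.

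Myc, which encodes a growth-promoting factor, had 6 selected peaks, all downstream of it and up to 111319 bp from its nearest TSS. The peak 23319 bp away had 610 and 705 reads without Dox, 1154 and 1204 after 12 h, and 303 and 574 after 48 h. The peak 101805 bp away had 617 and 597, then 1101 and 1082, then 424 and 558. The Myc promoter peak had 285 and 272 reads at 0 h and 294 and 282 at 12 h, a log2 fold change of 0.05 ± 0.21 (SE, edgeR adjusted p = 0.90). Of the distal peaks that lay between them, the one with most reads gave a log2 fold change of 0.28 at 12 h vs 0 h and was not in the set. A peak beyond them, also not in the set, gave 1.08 at 12 h and 1.25 at 48 h, each vs 0 h. After GC correction 4 of the 6 met the rule. The peak 23319 bp away was not among them, with a corrected ratio of 1.26. Sall1 had 7 selected peaks, 4 of them in a domain of 7703 bp upstream, and its promoter peak gave -0.19 ± 0.13 at 12 h vs 0 h (log2, SE, edgeR adjusted p = 0.34).

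**Figure D5:**
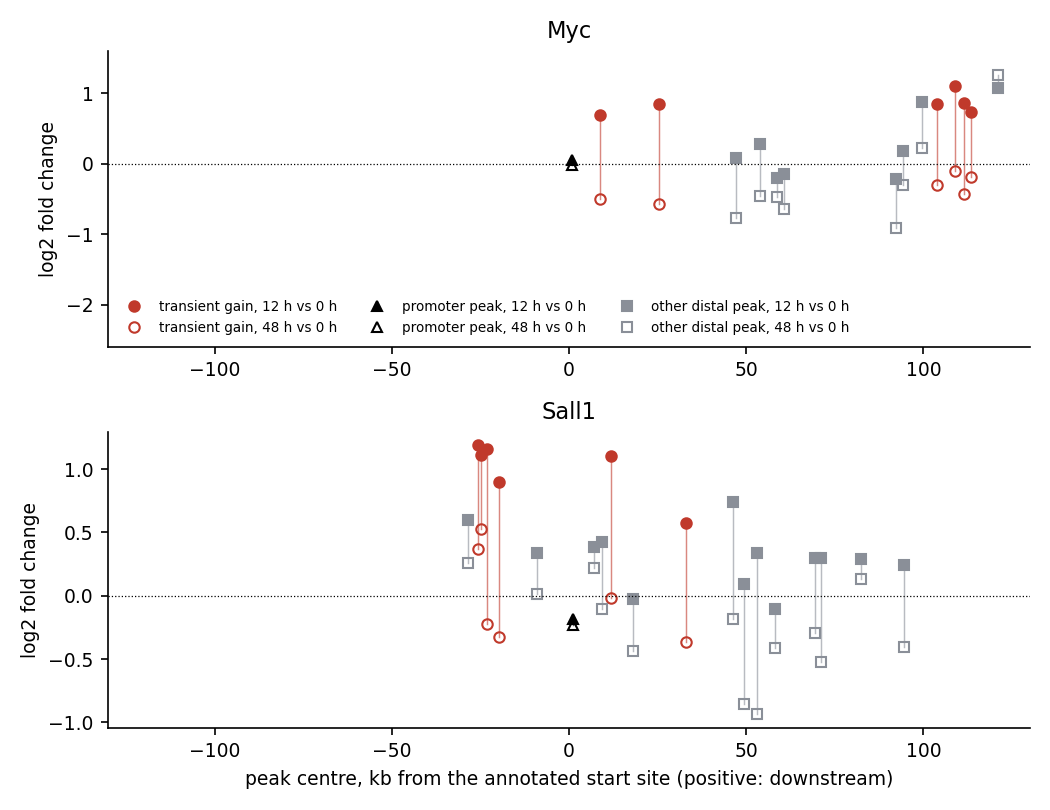
Log2 fold change of H3K27ac (edgeR) at 12 h vs 0 h (filled) and 48 h vs 0 h (open) for all peaks with enough reads round Myc and Sall1, against the distance in kb of the peak centre from an annotated start site, positive downstream. Circles are peaks with transient gain, triangles promoter peaks and squares other distal peaks. Near Myc the selected peaks lie between 0.70 and 1.10 at 12 h, and the promoter peak lies at 0.05.

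In the pluripotency lists, Otx2, a factor of the step from naive to primed cells, had 3 selected peaks. The one 26533 bp from the TSS had 56.4 and 58.4 reads without Dox, 148 and 138 after 12 h, and 43.3 and 58.5 after 48 h. The Otx2 promoter peak was also gained at 12 h vs 0 h, by 1.07 ± 0.22 (log2, SE, edgeR adjusted p = 0.0020), but stayed there at 48 h, with 248 and 226 reads at 12 h and 217 and 273 at 48 h. A peak 2618 bp from the TSS of Foxd3, a factor of the same step, had 18.5 and 25.5, then 52.5 and 57, then 33.3 and 27.5. Lifr encodes the receptor of LIF, the cytokine in the medium. A 9553 bp peak in its intron had 1103 and 1013 reads without Dox, 2180 and 2306 after 12 h, and 612 and 1350 after 48 h, where the replicates were far apart. None of the 3 selected peaks near Zfp42, a marker of naive cells, met the rule after GC correction, and 1 of the 3 near Sox2 did.

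Among neuronal regulators, St18 stood out. It encodes a zinc-finger factor of neurons, and 5 selected peaks lay in a domain of 12680 bp, 28250 to 39222 bp from its TSS. The one with the highest ratio had 28.7 and 24.4 reads without Dox, 158 and 189 after 12 h, and 17.8 and 45.6 after 48 h. The widest had 60.6 and 57.3, then 250 and 246, then 64.4 and 101. All 5 met the rule after GC correction. The St18 promoter peak held only 4 and 3 raw reads without Dox, 18 and 12 after 12 h, and 6 and 9 after 48 h. It was gained at 12 h vs 0 h, by 2.00 ± 0.64 (log2, SE, edgeR adjusted p = 0.034).

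Neurog1, a proneural factor, had a peak 7834 bp from its TSS with 14.4 and 6.37 reads, then 47.2 and 62.6, then 23.3 and 26.7. Cbfa2t2 encodes a corepressor, and a 6125 bp peak in its intron had 246 and 270 without Dox, 776 and 894 after 12 h, and 438 and 492 after 48 h, still above the start in both replicates (48 h vs 0 h log2 0.85 ± 0.17, SE, edgeR adjusted p = 0.0013). After GC correction its ratio was 1.28, short of the rule. The peak counted as the Cbfa2t2 promoter peak was 20379 bp wide, with its centre 10488 bp from the TSS in intergenic DNA. Its counts thus cover far more than the promoter. It had 3444 and 3477 reads, then 5504 and 5621, then 2888 and 3598. The log2 changes were 0.69 ± 0.13 at 12 h vs 0 h (SE, edgeR adjusted p = 0.00072) and -0.78 ± 0.13 at 48 h vs 12 h (edgeR adjusted p = 0.00031). At 48 h vs 0 h the promoter peak gave -0.09 ± 0.13 (edgeR adjusted p = 0.69).

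Id4, an inhibitor of basic helix-loop-helix factors, had 4 selected peaks in a domain of 14353 bp, 63732 to 76058 bp from its TSS, and all 4 met the rule after GC correction. The widest had 109 and 102 reads without Dox, 375 and 364 after 12 h, and 178 and 206 after 48 h. The Id4 promoter peak varied between replicates, with 52.3 and 67.9, then 90.1 and 56.1, then 154 and 77.4, and gave no call at 12 h vs 0 h or 48 h vs 12 h. It was gained at 48 h vs 0 h, by 0.93 ± 0.31 (log2, SE, edgeR adjusted p = 0.043). Rbpj, the DNA-binding factor of the Notch pathway, had 4 selected peaks and Dll1, a Notch ligand, had 3. The Dll1 peak 4387 bp from its TSS had 11.3 and 7.43, then 42.9 and 36.8, then 14.4 and 22.4.

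In the migration and cytoskeleton list, 4 genes had a selected peak, namely Map1b, Mapt, Rnd3 and Ncam1. A Mapt intron, in the gene of the microtubule protein tau, held a 5102 bp peak with 237 and 235 reads without Dox, 481 and 493 after 12 h, and 233 and 308 after 48 h.

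The cell type was checked against promoter peaks. All 6 ES cell markers (Pou5f1, Sox2, Nanog, Esrrb, Zfp42 and Sall4) had one, with 1236 to 4645 scaled reads in every library. These peaks were broad, from 9991 bp (Sox2) to 36390 bp (Esrrb), with 103 to 233 reads per kb, and so reached beyond the promoters. Marker counts here are not corrected for peak width. Of 24 fibroblast markers, which would show remaining feeders, 9 had a promoter peak, with a median of 18.9 reads. The summed count of these 9 was 361 and 306 without Dox, 243 and 228 after 12 h, and 532 and 296 after 48 h. Promoter peaks of all genes had a median log2 fold change of -0.41 at 12 h vs 0 h. Of the distal peaks near fibroblast markers 3 of 12 were selected, and the part of remaining feeders in the gain was not tested. The summed ES marker count was 16610 to 17890 at 0 h and 12 h, and 12360 and 14330 at 48 h. Library totals in merged peaks were 6283103 to 8112895 reads.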

How the data were processed

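H3K27ac ChIP-seq of A2Lox ES cells at 0 h, 12 h and 48 h of Dox, with 2 replicates each, was analysed. Groups came from the sample labels, and Input was not used. The authors aligned reads to mm10 with Bowtie2, used SAMtools 0.1.19, called peaks with MACS2, merged them over samples and deposited raw counts per merged peak, without scaling. Here counts were scaled by library totals (6283103 to 8112895), and all peaks were tested with edgeR 4.0.16 (glmQLFit, R 4.3.3) in a model of all 6 libraries with 3 residual degrees of freedom. DESeq2 1.42.0, TMM, a count filter, a replicate block, a GC offset (lowess, span 0.3) and omission of libraries were alternatives. TSSs were from GENCODE M21, sequences from GRCm38, with pysam 0.24.0. The SE is the log2 change divided by the root of the F statistic. Tests were tried on simulated data.

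Peaks were named by rule: the 10 of highest ratio, the 10 with most reads, the 5 genes nearest to most peaks, up to 3 genes per list with their peak of highest ratio, and 3 peaks on each side of the threshold. Other peaks of those genes, the Sall1 and Sox2 promoters, the sustained set, the hold-out reading, the GC bands, the domains and the repeat limits were chosen after values were seen. Sequences of the broad peaks with most reads are left out, since 300 bases say little of them. The peaks and lists were chosen with earlier results of these data known.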

Additional observations from a re-analysis of the deposited data

How the results depend on the processing

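The number of peaks with transient gain was 1699 with GC-corrected counts, 1315 and 262 with a minimum ratio of 1.5 and 2, and 1470 with a minimum mean count of 50. Among the 2597 peaks, those lost at 48 h vs 0 h were 42 with DESeq2, 46 with only the 4 libraries compared and 264 with the GC offset. Promoter peaks of nearest genes gained at 12 h vs 0 h were 88 with 4 libraries and 76 with the GC offset, and those lost at 48 h vs 12 h were 38 with DESeq2 and 37 with 4 libraries. Neighbouring distal peaks gained were 260 with DESeq2 and 757 with 4 libraries, and those lost 182 and 184. The share of peaks with CAGATG was 55.4% in 1000 bp and 36.4% under the GC-corrected rule, and with CAGCTG 38.7% and 25.4%. Leaving out 1 library at a time gave 2829 to 4534 peaks, 530 to 2471 gained at 12 h vs 0 h, 616 to 2411 lost at 48 h vs 12 h, and 55 to 509 gained and 14 to 559 lost at 48 h vs 0 h. It gave 15 to 88 gained and 18 to 98 lost promoter peaks, and 76 to 759 gained and 50 to 879 lost neighbours. The causes were not tested. Of 118 alternatives, 62 kept the value within the limit of 1.5 times for a count or of the counting interval for a share. Without the 11 peaks of very high read density, an alternative chosen after seeing the data, 2586 remained.

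With the replicate block, 2003 peaks were gained at 12 h vs 0 h, 2233 lost at 48 h vs 12 h, 234 gained and 121 lost at 48 h vs 0 h, and it moved no count by over 1.5 times. Over distal peaks, R2 minus R1 correlated at -0.04 (0 h and 12 h), -0.04 (0 h and 48 h) and 0.11 (12 h and 48 h). These values do not tell whether libraries with the same replicate number were handled together.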
